A study of Rattus norvegicus with 5 samples.

Results

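The genes described here are 8 differentiation factors and markers of the osteoclast, the bone-resorbing cell: Csf1, Csf1r, Tnfsf11, Tnfrsf11b, Nfatc1, Acp5, Cd68 and Atp6v0d2. Every probe set that the platform annotation gives a single gene symbol, and that symbol one of these, was taken, which gave 11 probe sets for 7 of the 8 genes, among 14217 genes measured by 20826 probe sets with 1 symbol. Atp6v0d2 had no probe set listed under its symbol and was not analysed here. The mandibular condylar cartilage (MCC), the fibrocartilage that covers the condyle of the jaw joint, was divided into its fibrous zone (FZ), proliferative zone (PZ), zone of mature chondrocytes (MZ) and zone of hypertrophic chondrocytes (HZ). These were compared with each other and with cells from the middle and deep layers of the hyaline femoral condylar cartilage (FCC) of the knee, which served as control. All tissue came from wild-type male Sprague-Dawley rats 5 weeks old, and cells were cut from 7 µm frozen sections by laser capture microdissection (LCM). According to the sample labels 30 sections were pooled for each group, and no source says how many rats they came from. For FZ the methods of the paper state a larger pool than the labels do. The amplified RNA of each group was read on 1 Affymetrix rat genome array. No difference therefore has a replicate check, and no test, p-value or error between replicates could be given.

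Osteoclasts form by fusion of precursors of the monocyte and macrophage line. Macrophage colony-stimulating factor (M-CSF, encoded by Csf1) keeps the precursors alive through its receptor (Csf1r), and RANKL (Tnfsf11) drives them to differentiate through its receptor RANK unless the decoy receptor osteoprotegerin (OPG, Tnfrsf11b) binds it first. RANK signalling induces the transcription factor NFATc1, which switches on genes of the mature cell such as tartrate-resistant acid phosphatase (TRAP, Acp5), the proton pump subunit Atp6v0d2 and proteases. In endochondral bone growth such cells resorb calcified cartilage below the hypertrophic zone, and chondrocytes are a known source of RANKL and OPG.

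The values are log2 intensities minus the median of the probe set over the 5 arrays, so 1 array of every probe set stands at 0 and a value states a difference between arrays, never a level. A gene with several probe sets was given their mean. A log2 difference of 1 is 2-fold and of 2 is 4-fold, the size the study took for differential expression. In place of a replicate error, the spread between probe sets of the same gene was used as a yardstick. It comes from within the same arrays and holds no variation between animals, dissections or amplifications. Its 90th percentile over genes was 0.72 for FZ minus FCC, 0.98 for PZ minus FCC, 0.76 for MZ minus FCC and 0.87 for HZ minus FCC. Over 4525 genes with at least 2 probe sets its median SD was 0.26 for FZ minus FCC, 0.36 for PZ minus FCC, 0.27 for MZ minus FCC and 0.30 for HZ minus FCC, and among MCC zones it ranged between 0.12 for MZ minus HZ and 0.33 for PZ minus HZ.

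A group of 3 measured genes, Csf1r, Acp5 and Cd68, shared 1 order of the arrays, with HZ highest, then MZ, FZ and PZ, and FCC lowest. Tnfrsf11b had its highest value in FCC and differed more between arrays than any other gene of the 7. Nfatc1 was lowest in MZ and HZ, while Csf1 and Tnfsf11 differed little between arrays. Of all genes measured, 3.46% had the order of those 3 genes.

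Csf1r, the M-CSF receptor that marks cells of the monocyte and macrophage line, had values of 0 in FZ, -1.02 in PZ, 0.91 in MZ, 1.31 in HZ and -1.44 in FCC. The deep zones MZ and HZ were thus high, and PZ and FCC were both low. For Csf1r, FZ exceeded FCC by 1.44, PZ by 0.42, MZ by 2.35 and HZ by 2.75, the last a 6.73-fold difference. In HZ minus FCC 38 genes had a larger positive difference.

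Acp5, the acid phosphatase used to stain osteoclasts, had values of 0 in FZ, -1.02 in PZ, 0.73 in MZ, 0.81 in HZ and -1.42 in FCC. HZ and MZ were 0.08 apart, less than the median spread between probe sets of 0.12. Every other pair of neighbours in the order was further apart than its median spread. PZ and FCC, 0.41 apart, were still within the 90th percentile of their spread, 0.98. Relative to FCC, Acp5 was 1.42 higher in FZ, 0.41 higher in PZ, 2.15 higher in MZ and 2.24 higher in HZ (4.72-fold). For HZ minus FCC, 134 genes had a larger positive difference.

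Cd68, a lysosomal membrane glycoprotein of macrophages and osteoclasts, had values of 0 in FZ, -0.52 in PZ, 1.0 in MZ, 1.28 in HZ and -1.52 in FCC. PZ stood less far under FZ than for the other pair of markers, and FCC was again lowest. FZ minus FCC was 1.52 for Cd68, PZ minus FCC 0.99, MZ minus FCC 2.52 and HZ minus FCC 2.79 (6.93-fold). Only 34 of all genes measured had a larger positive HZ minus FCC difference.

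**Figure D1:**
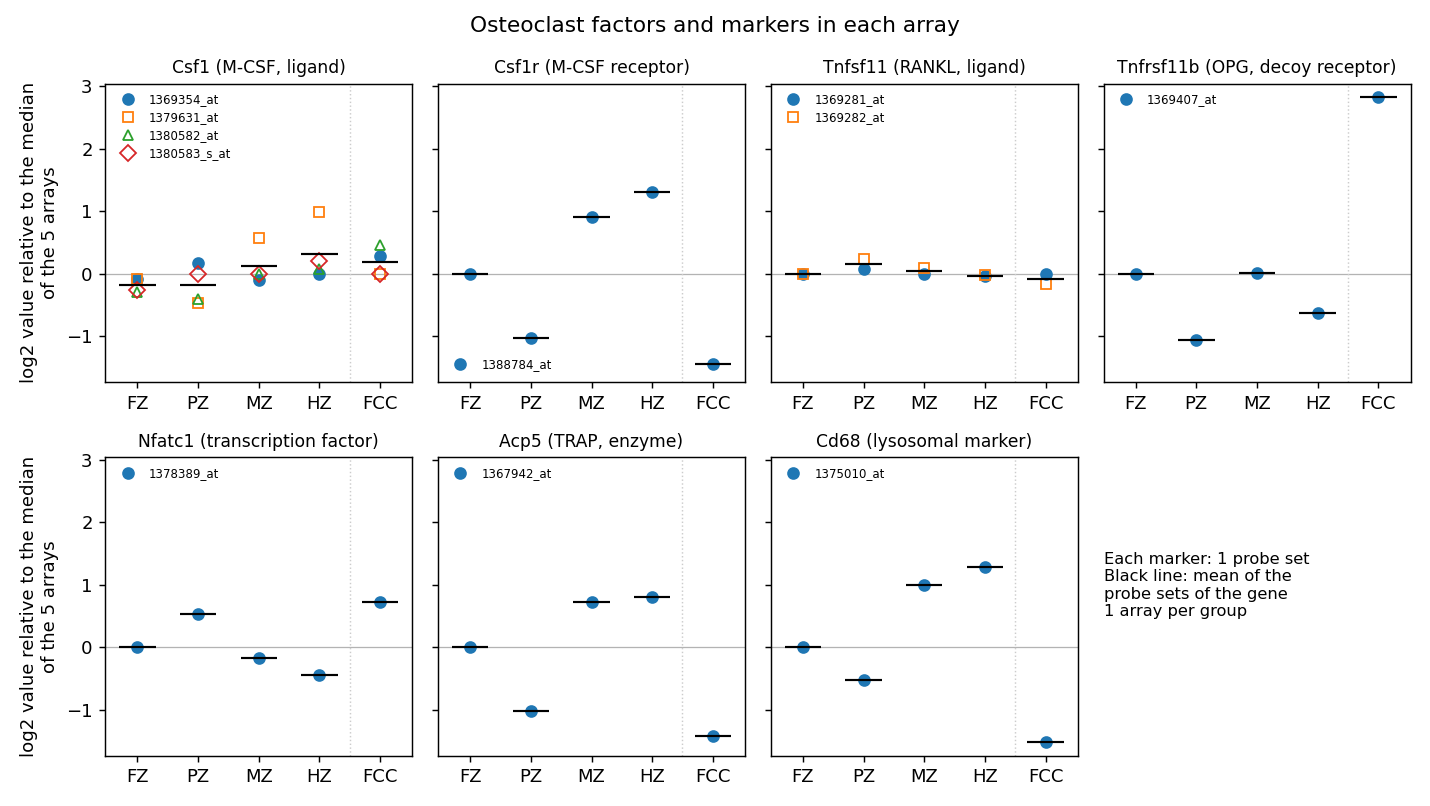
Log2 value relative to the median of the 5 arrays (y axis) of each probe set (marker) of the 7 measured genes, with the mean of the probe sets as a black line, in the FZ, PZ, MZ, HZ and FCC arrays (x axis), 1 array per group. Csf1r, Acp5 and Cd68 stand above 0 in MZ and HZ and lowest in FCC, and Tnfrsf11b reaches 2.82 in FCC.

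Sequences before the transcription starts of Cd68 and Acp5 are printed because these genes had the same order over the arrays and their promoters can be read beside each other for motifs of osteoclast factors. RefSeq promoters of the rat (GRCr8) were matched for 4 of the 8 genes, Csf1r, Tnfsf11, Cd68 and Acp5, the last with a pair of starts. Csf1, Nfatc1, Tnfrsf11b and Atp6v0d2 were not matched. Each line holds the 250 bases before a start, 5′ to 3′ on the strand of the gene. Capitals mark any of 4 motifs found on either strand, the PU.1 core GAGGAA, the NFAT core GGAAA, the AP-1 motif TGANTCA and the general E-box CANNTG. MITF binds only some forms of this E-box, so a marked E-box need not be a MITF site. Cd68 lies at chr10:54882442-54882691 on the minus strand, the first Acp5 start at chr8:28945931-28946180 and the second at chr8:28943930-28944179, both on the minus strand.
Cd68: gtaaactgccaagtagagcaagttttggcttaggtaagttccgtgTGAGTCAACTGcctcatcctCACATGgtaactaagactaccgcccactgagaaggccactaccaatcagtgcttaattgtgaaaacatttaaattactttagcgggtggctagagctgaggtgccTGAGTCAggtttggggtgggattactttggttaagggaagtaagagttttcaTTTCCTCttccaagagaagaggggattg
Acp5, first start: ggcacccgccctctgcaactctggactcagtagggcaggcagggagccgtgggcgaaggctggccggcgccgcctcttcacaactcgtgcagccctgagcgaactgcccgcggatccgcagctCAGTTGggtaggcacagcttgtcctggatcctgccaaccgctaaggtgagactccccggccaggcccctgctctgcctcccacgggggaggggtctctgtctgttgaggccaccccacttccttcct
Acp5, second start: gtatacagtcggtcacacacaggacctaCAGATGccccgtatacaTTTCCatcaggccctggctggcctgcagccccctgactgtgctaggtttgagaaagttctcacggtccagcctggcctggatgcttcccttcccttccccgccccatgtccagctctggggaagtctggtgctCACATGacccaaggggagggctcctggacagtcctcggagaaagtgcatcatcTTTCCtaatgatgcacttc

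In windows of 300 bases, which add 50 bases after the start, the PU.1 core was in 27.6% of 33469 promoters, the NFAT core in 62.7%, the AP-1 motif in 7.33% and the E-box in 72.1%. PU.1 is the factor that sets the monocyte and macrophage line. Its core lay on the minus strand at -27 and on the plus strand at 5 from the start of Cd68, and on the minus strand at -229 and -95 from that of Csf1r. Neither Acp5 window held it. AP-1 motifs, bound by Fos and Jun dimers, were at -205 and -80 of Cd68 alone among the 5 windows, the first overlapping an E-box at -200. NFAT cores were on the minus strand at -205 and -19 of the second Acp5 start, at -170 and -39 of Csf1r and at -28 of Cd68, where the core shares bases with that of PU.1. E-boxes were at -127 of the first Acp5 start, at -222 and -72 of the second, at -66 of Csf1r and at -185 of Cd68 besides the one named. The Tnfsf11 window held a PU.1 core at -138 and none of the other motifs. A match describes letters alone.

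Csf1, the ligand of Csf1r, was read by 4 probe sets and its mean value was -0.18 in FZ, -0.18 in PZ, 0.12 in MZ, 0.31 in HZ and 0.18 in FCC. No pair of neighbours in the order differed by more than the median spread between probe sets. The ends of the order did, as FZ minus HZ was -0.50 against a median spread of 0.17. For this pair the SD between the probe sets of Csf1 itself was 0.41. The probe sets did not move alike. The one labelled 1379631_at was at -0.09 in FZ, -0.48 in PZ, 0.57 in MZ, 0.98 in HZ and 0 in FCC, whereas 1369354_at stayed between -0.11 and 0.28. Their superficial minus deep differences were -1.06 and 0.09, with -0.39 for 1380582_at and -0.23 for 1380583_s_at between them. The gene's mean differed from FCC by -0.37 in FZ, by -0.36 in PZ, by -0.07 in MZ and by 0.13 in HZ, and the values for FZ and MZ turned to 0.28 and 0.45 when the arrays were set equal on their hybridization controls.

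Tnfsf11, which encodes RANKL, was flat in both of its probe sets. Its mean value was 0 in FZ, 0.15 in PZ, 0.05 in MZ, -0.03 in HZ and -0.08 in FCC, and no neighbours in this order differed beyond the spread between probe sets. The values hold no signal over background, so a flat gene cannot be told from one that was not detected in any array. RANK itself (Tnfrsf11a) was also flat, at -0.18 in FZ, -0.02 in PZ, 0 in MZ, 0.05 in HZ and 0.04 in FCC.

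Tnfrsf11b, the decoy receptor OPG, had values of 0 in FZ, -1.06 in PZ, 0.01 in MZ, -0.63 in HZ and 2.82 in FCC. FCC stood far above all MCC zones, among which PZ was lowest and FZ and MZ were closer than the spread between probe sets. The difference from FCC was -2.82 for FZ (7.07-fold lower), -3.88 for PZ (14.7-fold lower), -2.81 for MZ (7.01-fold lower) and -3.45 for HZ (10.9-fold lower). A more negative difference was found for 108 genes in FZ minus FCC, 43 in PZ minus FCC, 109 in MZ minus FCC and 115 in HZ minus FCC.

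Since RANKL and OPG are usually read as a pair, the value of Tnfsf11 minus that of Tnfrsf11b was taken in each array. It was 0 in FZ, 1.21 in PZ, 0.03 in MZ, 0.60 in HZ and -2.90 in FCC. FZ stood above FCC by 2.90, PZ by 4.11, MZ by 2.94 and HZ by 3.50, with a mean of 3.36. As Tnfsf11 was flat, these differences came from Tnfrsf11b, and they compare arrays and give no ratio of RANKL to OPG transcripts.

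Nfatc1, the transcription factor at the end of RANK signalling, had values of 0 in FZ, 0.54 in PZ, -0.17 in MZ, -0.45 in HZ and 0.72 in FCC in its single probe set. Its order over the arrays was thus FCC, PZ, FZ, MZ and HZ, the reverse of the order of Csf1r and Cd68, with FCC and PZ closer than the spread. Against FCC it differed by -0.72 in FZ, by -0.18 in PZ, by -0.89 in MZ and by -1.16 in HZ. With hybridization controls set equal the HZ minus FCC difference was -0.64.

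In the comparisons of MCC zones with FCC, which share the FCC array, 5 of the 7 genes differed by at least 1 in some zone, against 22.5% of all genes, and 4 by at least 2, against 5.51%. FZ minus FCC held 3 genes higher by at least 1 (Csf1r, Acp5 and Cd68, background 5.69%) and 1 lower (Tnfrsf11b, background 4.21%), and Tnfrsf11b alone was 2 or more apart (background 1.49% lower and 0.837% higher). In PZ minus FCC, Tnfrsf11b was the 1 gene lower by at least 1 (7.49% of all genes), it was lower by at least 2 as well (1.77%), and 0 were higher by 1 (4.65%). MZ minus FCC had the same 3 markers higher by at least 1 (6.98%) and by at least 2 (1.11%), with Tnfrsf11b lower by both sizes (4.74% and 1.49%). HZ minus FCC had the 3 markers higher by at least 1 (8.09%) and by at least 2 (1.51%), whereas Nfatc1 and Tnfrsf11b, 2 genes, were lower by at least 1 (5.98%) and Tnfrsf11b by at least 2 (2.18%).

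**Figure D2:**
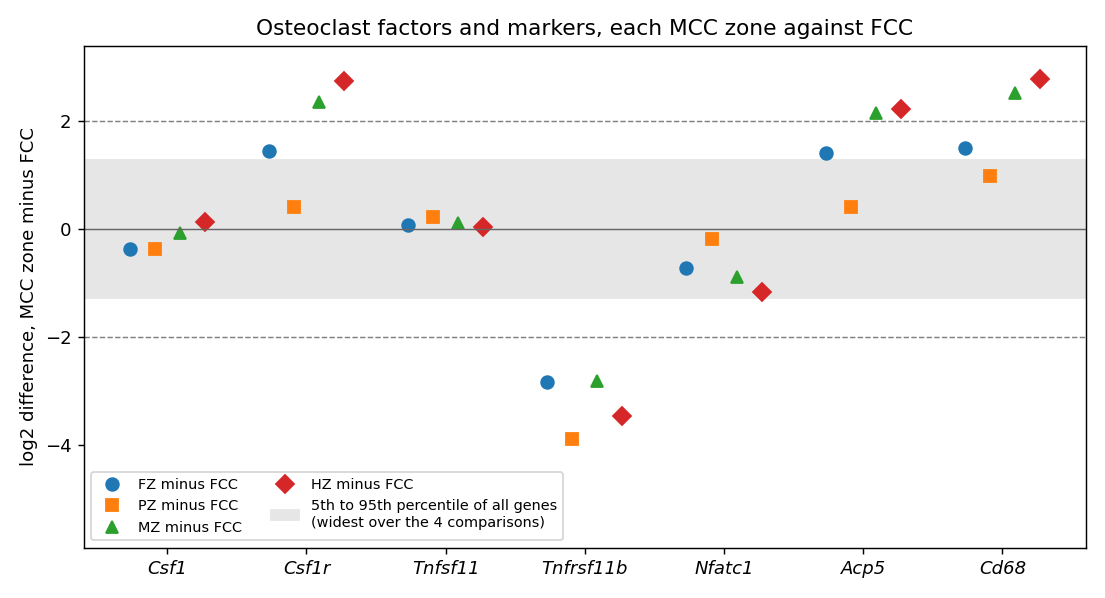
Log2 difference of each MCC zone minus FCC (y axis) for the 7 measured genes (x axis), 1 point per zone. Dashed lines mark 2 and -2 and the grey band spans the 5th to 95th percentile of all genes, at its widest over the 4 comparisons. Csf1r, Acp5 and Cd68 lie above 2 in MZ and HZ, Tnfrsf11b lies under -2 in every zone, and all 4 comparisons use the same FCC array.

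Superficial and deep MCC zones were compared as the mean of FZ and PZ minus the mean of MZ and HZ. Csf1r was lower in the superficial zones by -1.62, Cd68 by -1.40 and Acp5 by -1.28, and the share of all genes with a more negative difference was 0.753%, 1.42% and 1.91% in that order. These 3 of the 7 genes were lower by at least 1, against 3.78% of all genes, 0 were higher by at least 1 (2.24%), and 0 were 2 or more apart in either direction (0.928%). The remaining differences were -0.40 for Csf1, -0.22 for Tnfrsf11b, 0.07 for Tnfsf11 and 0.58 for Nfatc1. Over the 7 genes the median was -0.40, against 0.00 over all genes. Both FZ and PZ lay under both MZ and HZ for 4 genes, Csf1r, Acp5, Cd68 and Csf1 (24.1% of all genes), and above both for 1, Nfatc1 (19.7%).

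PZ carried much of this difference. With PZ left out, FZ alone was lower than the deep zones by -1.11 for Csf1r, -1.14 for Cd68 and -0.77 for Acp5, so that 2 genes were lower by at least 1 (background 2.84%). PZ alone was lower by -2.13, -1.67 and -1.79 for the same genes, all 3 by at least 1 (background 7.93%) and Csf1r by at least 2 (background 0.879%). The 3′ probe set of the control gene GAPDH also had a low value in PZ, 0.70 in FZ, -1.46 in PZ, 0 in MZ, -0.27 in HZ and 0.44 in FCC, whereas its 5′ probe set was at -0.10 in PZ. Beta-actin's 3′ probe set was at 0.12 in FZ, 0 in PZ, -0.12 in MZ, 0.24 in HZ and -1.76 in FCC, lowest in FCC. The middle probe set was at -0.85 in PZ and 0.63 in FCC for GAPDH, and at -0.68 in PZ and -1.39 in FCC for beta-actin. Beta-actin's 5′ probe set was at 0.14 in PZ and -0.52 in FCC. Their part in the results was not tested.

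Among single pairs of MCC zones, 4 of the 7 genes differed by at least 1 in some pair, against 17.2% of all genes, and 1 by at least 2, against 3.11%. PZ minus HZ gave the widest differences for the 3 markers, -2.33 for Csf1r, -1.83 for Acp5 and -1.80 for Cd68. These 3 genes were lower in PZ by at least 1 (background 8.41%), and Csf1r by at least 2 (background 1.07%). PZ minus MZ had 4 genes lower by at least 1, the 3 markers and Tnfrsf11b (background 7.67%). FZ minus PZ was 1.02 for Csf1r, 1.02 for Acp5 and 1.06 for Tnfrsf11b, 3 genes higher in FZ by at least 1 (background 6.1%), and 0.52 for Cd68. Between FZ and MZ 1 gene, Cd68, was lower in FZ by at least 1 (background 2.75%), and between FZ and HZ 2 were, Csf1r and Cd68 (background 3.21%). Between MZ and HZ 0 genes were at least 1 apart (background 1.11%), and MZ minus HZ was -0.08 for Acp5, -0.27 for Cd68, -0.40 for Csf1r and 0.64 for Tnfrsf11b.

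The genes that act with these factors were read from lists, described by counts and medians. For superficial minus deep, 3.78% of all genes were lower by at least 1 and 2.24% higher, with a median of 0.00. In the list of RANK and M-CSF signalling genes 28 of 29 were measured, of which 7 were lower in the superficial zones by at least 1 (3.78% of all genes) and 0 higher (2.24%), with a median of -0.26. Of these 7 lower genes, all but Plcg2 had higher values in MZ and HZ than in every other array. Over the whole list, 17 of the 28 had FZ and PZ both under MZ and HZ (24.1% of all genes) and 3 had both above (19.7%). Fcer1g, an adaptor that carries the activating motif for costimulation of osteoclast precursors, had values of 0 in FZ, -2.09 in PZ, 1.03 in MZ, 1.11 in HZ and -1.26 in FCC. Tyrobp (DAP12), the other such adaptor, was at 0 in FZ, -0.81 in PZ, 0.79 in MZ, 1.32 in HZ and -1.26 in FCC, with all arrays in the order of Csf1r. The kinases that act behind these adaptors, Syk (-1.65), Btk (-1.90) and Tec (-1.11), and the linker Blnk (-1.56) were also lower in the superficial zones, with the superficial minus deep difference in parentheses. Plcg2, the phospholipase they activate, differed by -1.28 but was highest in FCC, at -1.16 in FZ, -1.23 in PZ, 0 in MZ, 0.16 in HZ and 1.18 in FCC. FZ alone against the deep zones gave 8 lower genes of this list (2.84% of all genes). For superficial minus deep, the TRAF genes of the list differed by -0.25 (Traf6), 0.93 (Traf2) and 0.01 (Traf3). Its NF-kB genes differed by -0.61 (Nfkb1), 0.32 (Nfkb2), 0.04 (Rela) and -0.24 (Relb). The paper names immunoglobulin light chain genes among the highest in HZ. No list of lymphoid genes was read, and the part of lymphoid cells in the values of Syk, Btk, Tec and Blnk was not tested.

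Of 25 listed fusion and resorption genes 20 were measured, and 5 were lower in the superficial zones by at least 1 (3.78% of all genes) with 0 higher (2.24%), with a median of -0.43. Car2, the carbonic anhydrase that supplies protons for acid secretion, differed most, by -2.21. Its values were -0.25 in FZ, -1.28 in PZ, 1.03 in MZ, 1.87 in HZ and 0 in FCC. FCC thus stood above FZ and PZ, unlike for Csf1r, and as in the medians of the erythroid markers given below. Which cells gave the values of Car2 was not tested. Mmp9, a gelatinase of osteoclasts, differed by -1.47. Ostm1, the partner of the osteoclast chloride channel, differed by -1.28 and was 3.70 higher in HZ than in FCC. Plekhm1 (-1.25) and Snx10 (-1.01), both of vesicle traffic, completed the 5, all as superficial minus deep. Of this list 12 genes were higher in HZ than in FCC by at least 1 (8.09% of all genes) and 1 was lower (5.98%).

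Ctsk, the collagen-degrading protease of osteoclasts, had values of 0 in FZ, -0.41 in PZ, 0.28 in MZ, 0.36 in HZ and -1.01 in FCC, the order of Csf1r over a narrower range. Calcr, the calcitonin receptor, had a mean of -0.02 in FZ, -0.36 in PZ, 0.42 in MZ, 0.84 in HZ and -0.25 in FCC, but its pair of probe sets differed, with -0.02 and -1.62 for superficial minus deep. Dcstamp and Ocstamp, which mark fusing osteoclasts, had no probe set listed and were not analysed here. The list of defining markers was thus read in part only.

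**Figure D3:**
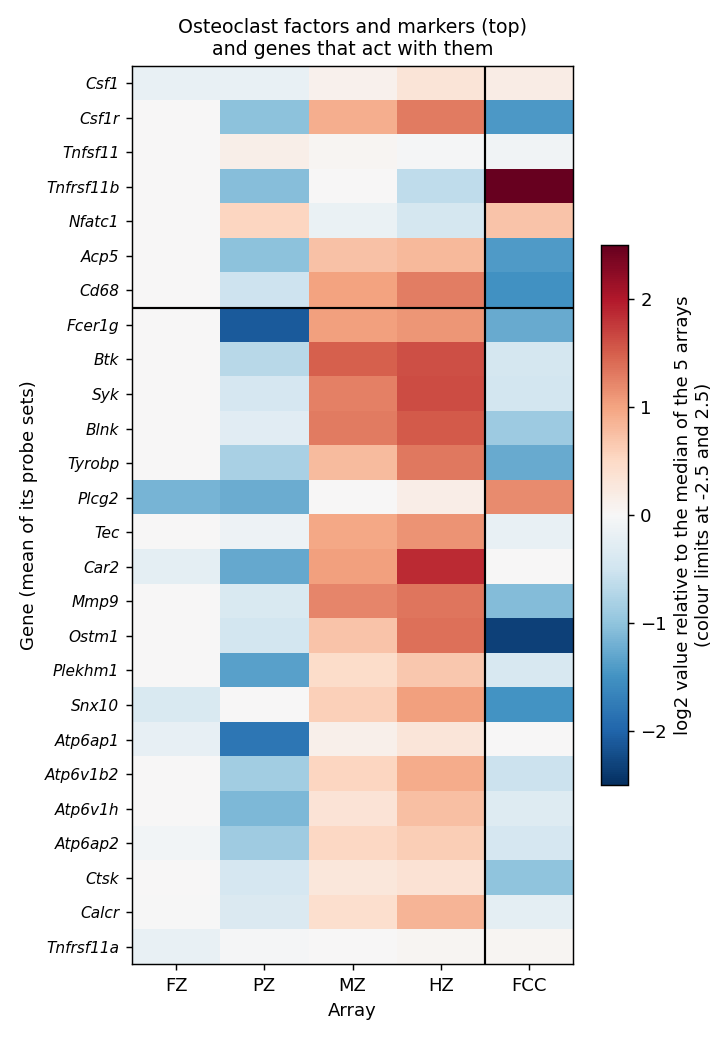
Log2 value relative to the median of the 5 arrays (colour) in the FZ, PZ, MZ, HZ and FCC arrays (x axis) for the 7 measured genes (top block) and for genes that act with them (lower block), most of which were picked because they differ by at least 1 between superficial and deep zones. Csf1r, Acp5, Cd68, Fcer1g and Tyrobp are blue in PZ and FCC and red in MZ and HZ, whereas Nfatc1 and Tnfrsf11b are highest in FCC.

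The proton pump (V-ATPase) to which Atp6v0d2 belongs was measured in 23 of 24 other subunits and accessory proteins, and 5 were lower in the superficial zones by at least 1 (3.78% of all genes) with 0 higher (2.24%), with a median of -0.71. The largest differences were -1.22 for Atp6ap1, -1.16 for Atp6v1b2, -1.11 for Atp6v1h and -1.05 for Atp6ap2. PZ decided these calls, since 10 genes of the list were lower by at least 1 in PZ alone against the deep zones (7.93% of all genes), whereas FZ alone gave 0 lower (2.84%) and 1 higher. Atp6v0d1, the broadly expressed paralog of Atp6v0d2, was picked after its values were seen and had 0 in FZ, -0.41 in PZ, 0.36 in MZ, 0.22 in HZ and -0.43 in FCC.

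Of 17 listed transcription factors of osteoclasts 16 were measured, and 2 were lower (3.78% of all genes) and 1 higher (2.24%) in the superficial zones by at least 1, with a median of -0.14. Prdm1 (Blimp1), which represses inhibitors of osteoclast formation, differed by -1.34, and Pparg by -1.17. Jun, a component of AP-1, was the higher one, by 1.0 over 3 probe sets at 1.29, 0.49 and 1.22, and Fosl1 differed by 0.96. Of 11 listed repressors of osteoclast formation 10 were measured and 1, Id3, was lower by at least 1 (3.78% of all genes), at -1.15, with a median of -0.22. Spi1, which encodes PU.1, was not analysed here.

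Markers of other cell types moved between the same arrays. Of 27 macrophage and monocyte markers, 23 were measured, 5 were lower in the superficial zones by at least 1 (3.78% of all genes) and 0 higher (2.24%), with a median of -0.70, and 12 were higher in HZ than in FCC by at least 1 (8.09%). The 5 became 3 with FZ alone (2.84% of all genes) and 7 with PZ alone (7.93%). The list's median value was 0 in FZ, -0.06 in PZ, 0.44 in MZ, 0.52 in HZ and -0.45 in FCC, and 7 of its genes had the array order of Csf1r, as did 6 of the resorption list and 4 of the RANK and M-CSF list (3.46% of all genes). Lcp1, an actin-bundling protein of leukocytes, differed by -1.70 between superficial and deep zones, whereas Cd14, picked after its values were seen, differed by 0.68. Erythroid markers differed in the same direction, 9 of 10 measured lower in the superficial zones by at least 1 (3.78% of all genes), with a median of -1.66. However, their list medians were -0.57 in FZ, -0.69 in PZ, 0.67 in MZ, 1.26 in HZ and 0 in FCC. Among them 0 genes had the order of Csf1r (3.46% of all genes). The counts of genes at least 1 lower were 4 of 6 neutrophil, 5 of 9 endothelial, 4 of 11 osteoblast and 5 of 9 hypertrophy markers (3.78% of all genes), with Col10a1, the collagen of hypertrophic chondrocytes, at -2.67. The osteoblast and hypertrophy lists overlap, and Spp1 (-2.14) and Alpl (-1.39) are counted in both. FZ alone gave 3 lower endothelial and 3 lower osteoblast markers (2.84% of all genes), and PZ alone gave 5 and 6 (7.93%). Tendon and fibrous tissue markers ran the other way, 11 of 12 higher by at least 1 (2.24% of all genes). Of 13 hyaline cartilage markers 6 were lower (3.78% of all genes) and 3 higher (2.24%), with a median of -0.78. However, FZ alone gave 8 lower (2.84%) and 2 higher with a median of -1.38. PZ alone gave 1 lower (7.93%) and 5 higher with a median of 0.33. The share of all genes higher in FZ or PZ alone was not computed. In such bulk samples fewer cells of a type and less RNA per cell cannot be told apart, and the part of these cells in the values of Csf1r, Acp5 and Cd68 was not tested.

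**Figure D4:**
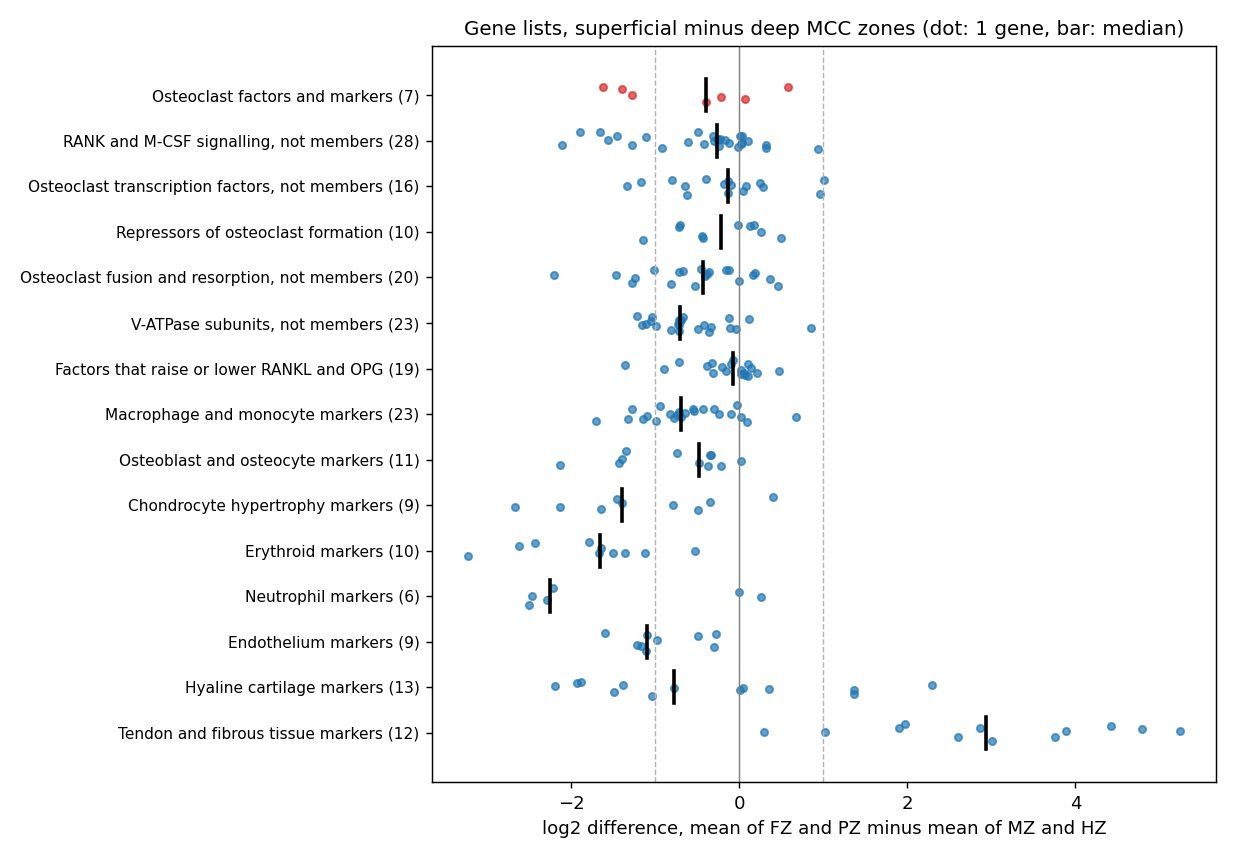
Log2 difference of the mean of FZ and PZ minus the mean of MZ and HZ (x axis) for every measured gene (dot) of the osteoclast factors and markers (top row) and of 14 gene lists (rows, number of genes measured in parentheses), with the median as a bar and dashed lines at 1 and -1. Csf1r, Cd68 and Acp5 are the 3 top-row dots under -1, and macrophage, erythroid and neutrophil markers lie mostly under 0 while tendon and fibrous tissue markers lie above it.

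For each gene whose values spanned at least 1, the 3 genes with the most similar values were found by the root-mean-square (RMS) log2 difference over the 5 arrays. For Csf1r they were Anpep (0.0803), Slc9b2 (0.104) and Tyrobp (0.137), for Acp5 they were Slit3 (0.143), Lgals3bp (0.160) and Anpep (0.164), and for Cd68 they were Ckb (0.139), Lcp1 (0.158) and Ccr1 (0.169), each with its RMS difference. Anpep was thus common to Csf1r and Acp5. Among the markers themselves, Cd68 ranked 9 and Acp5 ranked 10 in likeness to Csf1r. In likeness to Acp5, Csf1r ranked 12 and Cd68 ranked 39. In likeness to Cd68, Csf1r ranked 20 and Acp5 ranked 53. Nfatc1 was closest to Scn3a (0.0537), Apeg3 (0.0613) and Atp23 (0.0794). The genes nearest to Tnfrsf11b were further off, Lmcd1 (0.298), Meis1 (0.332) and Crim1 (0.343).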

How the data were processed

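LCM samples of FZ, PZ, MZ, HZ and FCC gave 1 array each, and groups were taken from the tissue labels. The authors summarized intensities as log2 values by RMA in GeneSpring GX, which equalizes the arrays by quantiles, and subtracted from every probe set its own 5-array median. MAS5 and RMA are named in the submitters' processing notes with no version, and no genome build was given in the sources used here. Differences in total RNA and signal over background are therefore lost, and the number of arrays limits the precision.

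Of 31099 probe sets 57 were controls. Of the others 20826 had 1 symbol in the platform annotation, 436 had several and 9780 were unnamed here. Log2 differences between gene means were computed in Python 3.11.15 (pandas 2.3.3, numpy 2.4.6, matplotlib 3.10.9), and genes were counted at 1 and 2. The functions were tested on simulated data. Other genes were named by a rule that took all 8 listed genes, up to 4 genes with the largest superficial minus deep difference in each of 14 lists, every gene at least 1 apart in the signalling, transcription factor and resorption lists, and the 3 most similar genes. The members and lists were chosen with earlier results of these data known. As alternatives, arrays were centred on their medians, with further runs setting hybridization controls equal, the probe set of largest or smallest range, a size of 1.4 and, added after the data were seen, FZ or PZ alone.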

Additional observations from a re-analysis of the deposited data

How the results depend on the processing

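For the 7 measured osteoclast genes, no superficial minus deep or zone minus FCC difference of at least 1 changed sign under the alternatives run for it. Of 36 values recomputed for the counts and for Tnfsf11 minus Tnfrsf11b, 32 stayed within 1.5 times the reported value and 4 moved further. Of the recomputed differences of single genes, 116 were classed as the same and 38 as moved. The 38 included FZ, MZ and HZ minus FCC of Csf1r, Acp5, Cd68 and Tnfrsf11b with hybridization controls set equal. Part of the stability was fixed in advance. Centring arrays on their medians left the values as they were. The choice of probe set could act on Csf1 and Tnfsf11 only, because the other 5 genes had 1 probe set. Within that limit, genes at least 1 apart numbered 4 or 5 for MCC zones against FCC (5 reported). For zone pairs they numbered 4 or 5 (4 reported), and 3 genes were apart at a size of 1.4. For superficial minus deep they numbered 2 to 4 (3 reported). Genes at least 2 apart between MCC zones numbered 1, but 3 with hybridization controls set equal and 3 at a size of 1.4. Genes at least 2 apart between superficial and deep zones numbered 0, but 1 with PZ alone and 2 at a size of 1.4. Tnfsf11 minus Tnfrsf11b stayed between 3.25 and 3.47 under either choice of probe set. That choice exchanged the flat probe sets of Tnfsf11 only, as Tnfrsf11b had 1 probe set, so it could move the value little. Setting hybridization controls equal moved the median of all genes to 0.66 in FZ minus FCC, 0.07 in PZ minus FCC, 0.55 in MZ minus FCC and 0.52 in HZ minus FCC, and to -0.17 for superficial minus deep. The HZ minus FCC difference was then 3.28 for Csf1r, 3.32 for Cd68, 2.76 for Acp5 and -2.93 for Tnfrsf11b, against that shifted median. Nfatc1, at -0.64 there, was no longer at least 1 apart, which left 4 genes in place of 5. The causes were not tested.

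With 1 array per group, 5 of the 7 genes read by 1 probe set and no signal over background, an array that stands apart by its preparation and a group that differs cannot be told apart. No paired analysis was possible because the groups hold 1 array each and carry no shared replicate numbers.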

Other observations

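Factors known to raise or lower RANKL and OPG in stromal cells and chondrocytes were read in 19 of 23 listed genes. Ptgs2, the inducible enzyme of prostaglandin synthesis, was the 1 gene of the 19 at least 1 apart between superficial and deep zones. This count is near the share of all genes, 6.03%. Ptgs2 differed by -1.36, with values of 0 in FZ, -0.59 in PZ, 0.98 in MZ, 1.15 in HZ and -0.70 in FCC. Its arrays stood in the order of Csf1r, Acp5 and Cd68, an order that 3.46% of all genes had. Bmp2 differed by -0.90, Ephb4 by -0.72 and Wnt16 by 0.47, and the median of the list was -0.08.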
